A study of Mus musculus and Homo sapiens with 9 samples.

Results

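The cytosolic ribosomal protein genes encode the proteins of the large and small subunits of the ribosome outside mitochondria, and their promoters were examined in 9 CUT&Tag peak lists. Members were the protein-coding genes whose symbol begins with RPL or RPS and a number, with RPLP0, RPLP1, RPLP2 and RPSA added and the RPS6K kinases left out. The rule found 82 of 21938 protein-coding genes in the mouse and 84 of 20033 in the human. The mouse members comprised 50 genes of the large subunit and 32 of the small subunit, and the human members 50 and 34. No peak value entered the rule. A gene was counted as having a promoter peak when the midpoint of a peak lay within 1 kb of any annotated transcription start site (TSS) of the gene. At least 1 list held such a peak for 36 mouse and 42 human members.

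Ribosomal protein genes are short and transcribed at a very high rate in growing cells. Most of their mRNAs begin with a cytidine followed by a run of pyrimidines, the 5′ terminal oligopyrimidine (TOP) start, through which translation follows growth signals, and the introns of many of them carry small nucleolar RNAs. R-loops, in which a nascent RNA pairs with its template and displaces the other DNA strand, are frequent near the start of transcribed genes with GC-rich promoters. The S9.6 antibody binds DNA-RNA hybrids, and CUT&Tag uses an antibody to direct a transposase that cuts and tags the DNA around its target.

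Mouse embryonic fibroblasts (MEFs) came from E13.5 Mcm8+/+ and Mcm8-/- embryos, the latter with exon 7 of Mcm8 deleted by CRISPR, of a mixed C57BL/6J and ICR background and were immortalized with SV40 through a lentivirus under puromycin selection. S9.6 was applied to wild-type (WT) MEFs, to Mcm8 knockout (KO) MEFs, to MEFs with a control shRNA (shControl), whose Mcm8 genotype the labels do not state, and to MEFs in which Ddx5 was knocked down by shRNA from an adenovirus (shDdx5), and 1 further wild-type MEF library had no primary antibody. In HEK293, a human embryonic kidney line, the libraries were mouse IgG, anti-FLAG after transfection of a FLAG-MCM8 plasmid, S9.6, and S9.6 after transfection of a plasmid labelled RNH1 (the RNH1-plasmid list), a name the study uses for RNase H1, the enzyme that cleaves the RNA of a hybrid. MCM8 is a helicase of the minichromosome maintenance family and DDX5 a DEAD-box RNA helicase. Each group had 1 library, so the comparisons have no replicate check, no p-value is given, and the intervals cover counting error only.

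The MEF S9.6 lists held 6481 to 12259 peaks and the no-antibody list 4314, and the HEK293 lists held 12497 to 17178. The mean fragment depth over the genome, recovered from the peaks, was 1.31 to 1.67 in the S9.6 MEF libraries, 0.191 without antibody and 1.81 to 3.34 in HEK293. Of 16 fibroblast marker genes fixed for a check of the cell type, 2 had a promoter peak in the WT, KO and shControl lists and 5 in shDdx5, with Vim in all 4, while none of 6 blood and immune markers did. Of 8 markers used for HEK293 cells, 2 had a peak in the S9.6 list and 1 (WT1) in the RNH1-plasmid list, while 2 of 5 blood and immune markers and 2 of 6 epithelial markers (EPCAM and KRT8) also had one in S9.6. Peak lists hold only sites past a caller's threshold, so a gene without a peak may still carry signal below it.

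Sequences are shown first for the promoters on which the results turn. Rps23 was 1 of only 2 mouse members with a peak in all 4 S9.6 MEF lists, and Rps19 had the highest fold of any member. The bases that their S9.6 peaks had in common and that lay outside annotated exons are printed from mm10, on the strand of the gene. Capitals mark 7 bases centred on a peak summit. The Rps23 stretch, upstream of the gene, lies at chr13:90922789-90922957 on the plus strand, ends at the base before a TSS of the gene and was shared by 4 peaks, 2 of which had their summit in it. The Rps19 stretch lies at chr7:24884270-24884370 on the plus strand, also up to the base before a TSS, and was shared by the KO, shControl and shDdx5 peaks, 2 of which had their summit in it, 1 of them near its first base.
Rps23: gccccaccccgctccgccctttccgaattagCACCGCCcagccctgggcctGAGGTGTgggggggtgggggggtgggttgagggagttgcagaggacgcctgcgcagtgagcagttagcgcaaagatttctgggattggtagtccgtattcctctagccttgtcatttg
Rps19: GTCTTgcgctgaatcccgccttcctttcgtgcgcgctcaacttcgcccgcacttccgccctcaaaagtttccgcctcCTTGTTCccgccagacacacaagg
The GC content of these stretches was 62.1% for Rps23 and 60.4% for Rps19.

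In HEK293 cells most S9.6 peaks of the members ended short of the TSS, and 7 of those that ended within 50 bp of it are shown from hg38, as 60 bases before the TSS of the canonical transcript and the first 10 transcribed bases. Lower case marks bases inside the S9.6 peak, and capitals mark the bases between the edge of the peak and the TSS together with the 10 transcribed bases. The stretches lie at chr17:28719925-28719994 (RPL23A, plus strand), chr17:8383184-8383253 (RPL26, minus strand), chr19:55385872-55385941 (RPL28, plus strand), chrX:119791621-119791690 (RPL39, minus strand), chr11:809907-809976 (RPLP2, plus strand), chr19:41860195-41860264 (RPS19, plus strand) and chr4:151099568-151099637 (RPS3A, plus strand).
RPL23A: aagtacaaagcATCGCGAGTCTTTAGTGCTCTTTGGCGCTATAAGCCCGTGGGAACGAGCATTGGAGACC
RPL26: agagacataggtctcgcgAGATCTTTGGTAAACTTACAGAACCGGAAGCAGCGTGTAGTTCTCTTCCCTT
RPL28: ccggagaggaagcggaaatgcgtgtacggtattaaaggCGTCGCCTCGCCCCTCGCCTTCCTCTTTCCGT
RPL39: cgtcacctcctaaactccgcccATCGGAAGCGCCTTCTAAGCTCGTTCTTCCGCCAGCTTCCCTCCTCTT
RPLP2: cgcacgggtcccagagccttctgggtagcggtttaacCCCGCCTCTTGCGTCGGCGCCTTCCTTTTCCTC
RPS19: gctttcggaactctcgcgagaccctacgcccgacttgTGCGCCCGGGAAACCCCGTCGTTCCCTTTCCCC
RPS3A: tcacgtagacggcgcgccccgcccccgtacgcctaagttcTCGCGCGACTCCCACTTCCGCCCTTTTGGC
In 6 of these 7 the transcript began with a C and at least 4 further pyrimidines, the TOP start, and RPL23A was the exception.

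The members carried promoter peaks about as often as protein-coding genes at large. In the WT list 7 members (8.54%, exact 95% interval 3.50 to 16.8) had a promoter peak, against 11.3% of all protein-coding genes. In the KO list 18 members did (22.0%, 13.6 to 32.5), against 16.0%. The shControl list held 11 (13.4%, 6.89 to 22.7) against 14.7%, and the shDdx5 list held 21 (25.6%, 16.6 to 36.4) against 23.1%. The interval of the members included the share over all protein-coding genes in each of these 4 lists.

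In HEK293 cells 28 members (33.3%, 23.4 to 44.5) had a promoter peak in the S9.6 list, against 30.1% of all protein-coding genes, and 24 (28.6%, 19.2 to 39.5) in the RNH1-plasmid list, against 24.6%. The FLAG-MCM8 list held 10 (11.9%, 5.86 to 20.8) against 12.0%. Both control lists held 1 member each, which was 1.22% without antibody against 1.24%, and 1.19% with IgG (0.0301 to 6.46) against 5.59%. Again each interval included the share over protein-coding genes, so in none of the 9 lists did the members stand apart from that share beyond counting error.

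**Figure D1:**
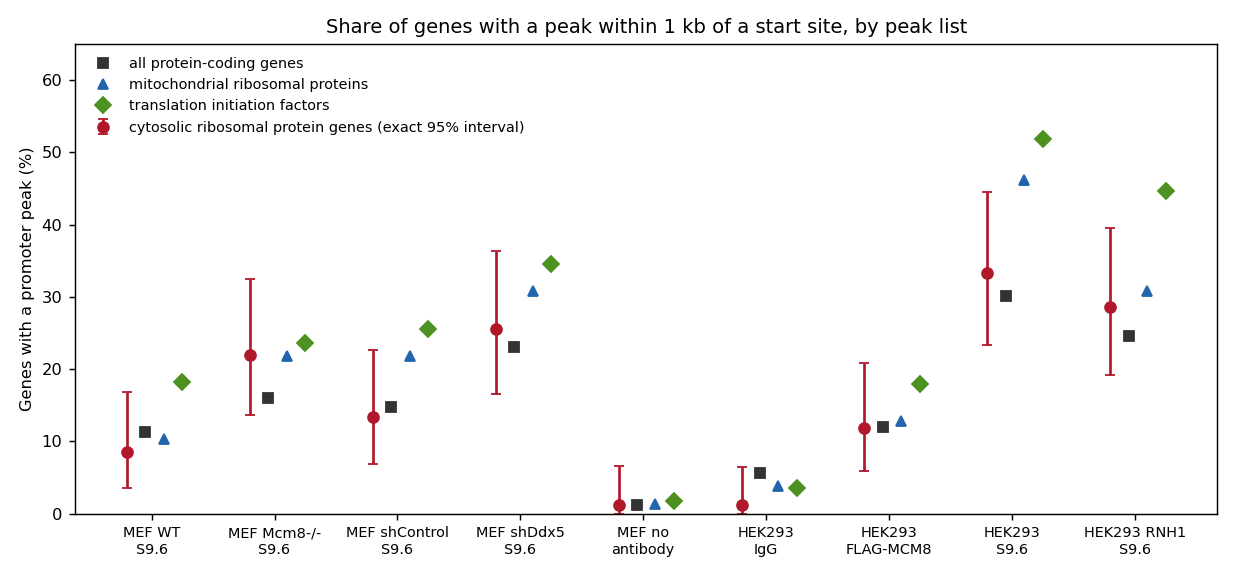
Percent of genes with a promoter peak (y axis) in each of the 9 peak lists (x axis), for the cytosolic ribosomal protein genes (circles, bars are exact 95% intervals over genes), all protein-coding genes, the mitochondrial ribosomal protein genes and the translation initiation factor genes. The circles run from 1.19% in IgG to 33.3% in HEK293 S9.6, and every bar includes the square for all protein-coding genes.

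Large and small subunit genes, without the paralogs, were counted separately. In the WT list 2 of 46 large subunit genes (4.35%) and 4 of 31 small subunit genes (12.9%) had a promoter peak, and in the KO list 8 (17.4%) and 9 (29.0%). In shDdx5 the shares were 12 of 46 (26.1%) and 8 of 31 (25.8%), and in HEK293 S9.6 they were 16 of 46 (34.8%) and 10 of 31 (32.3%). The order of the subunits thus differed between lists.

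Of the 82 mouse members, 46 had no promoter peak in any S9.6 MEF list, 22 had one in a single list, 9 in 2 lists, 3 in 3 lists and 2 in all 4. The share in all 4 lists was 2.44% for the members and 4.19% for protein-coding genes, and the share in a single list was 26.8% and 16.2%. Members were thus mostly found in 1 list and not again in another.

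Rps23, which encodes a protein of the decoding centre of the small subunit, was 1 of the 2 in all 4 lists. WT had 11 fragments stacked at its summit, KO 6, shControl 11 and shDdx5 14, and the deposited fold over local background was 4.48 (WT), 2.83 (KO), 4.91 (shControl) and 4.90 (shDdx5). KO had the lowest of the 4 values. Rps27l, a paralog of Rps27 that p53 induces, was the other. Its WT peak had 12 fragments (fold 4.37), KO 8 (3.08), shControl 10 (4.50) and shDdx5 14 (5.10). Its KO value was again the lowest.

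The members with peaks in 3 lists were Rps27a, Rpl7 and Rps19. Rps27a, which encodes a fusion of ubiquitin with a small subunit protein, had folds of 5.15 in WT, 4.64 in KO and 5.29 in shDdx5, and no peak in shControl. Its window also held a start of Clhc1. Rpl7 had folds of 3.75 in KO, 4.91 in shControl and 5.56 in shDdx5, and no peak in WT. Rps19, the gene most often mutated in Diamond-Blackfan anaemia, is described with the Ddx5 comparison.

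**Figure D2:**
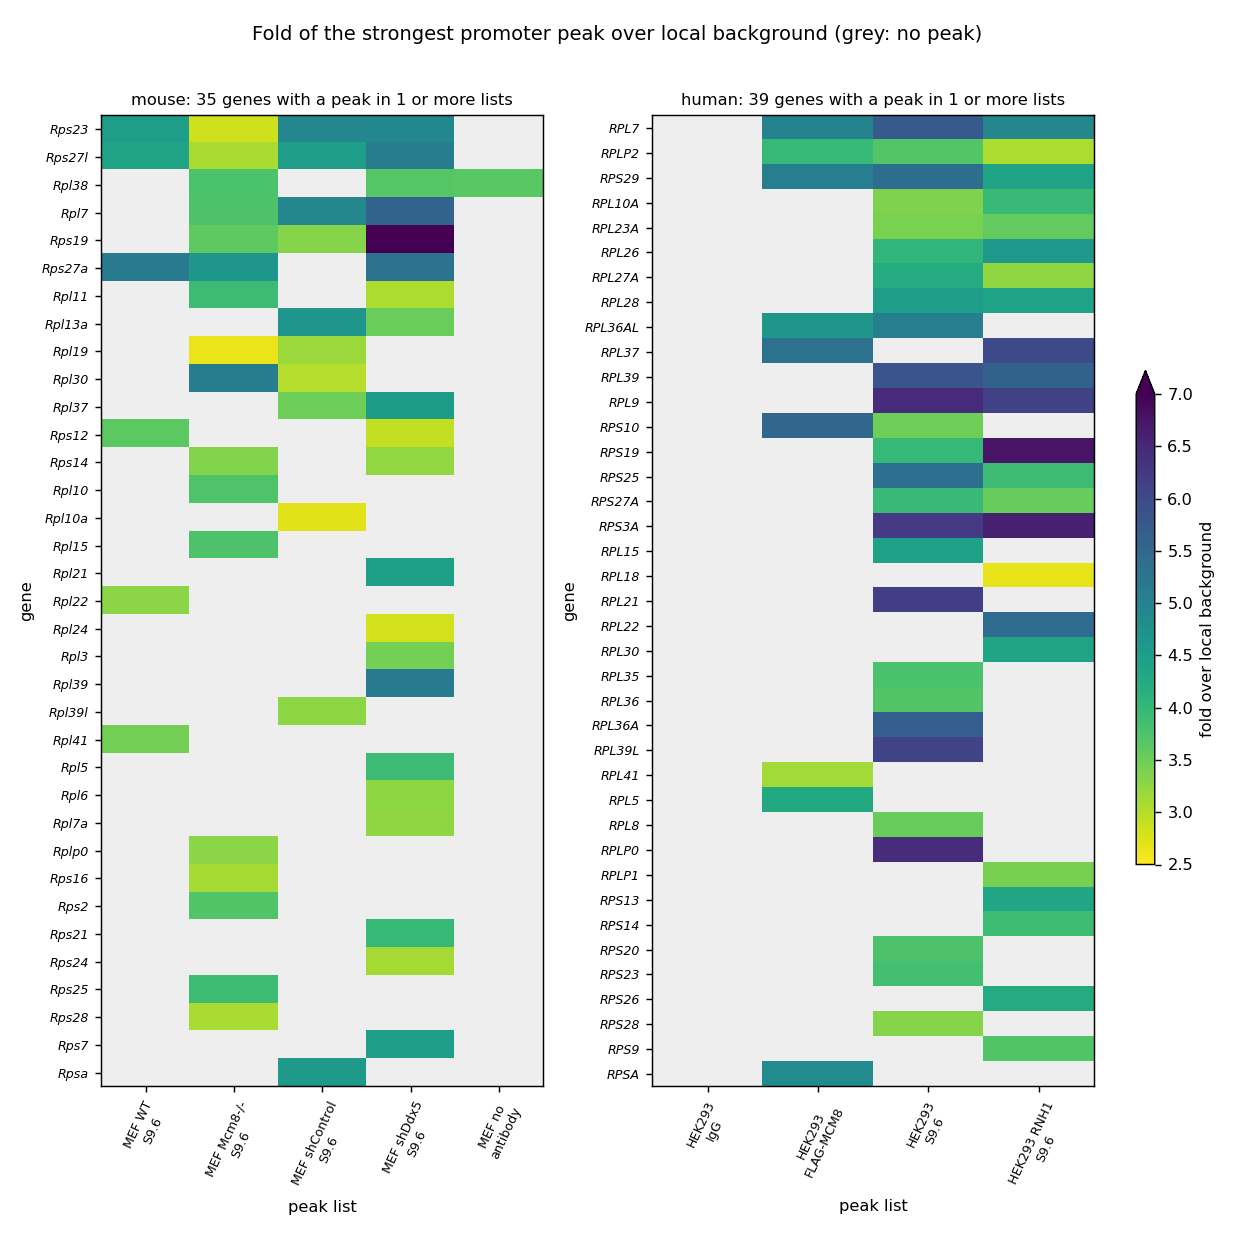
Fold of the strongest promoter peak over local background (colour scale) for members with a promoter peak in 1 or more lists (rows), by peak list (columns), with mouse genes on the left and human genes on the right; grey means no peak. Of the 35 mouse genes drawn, Rps23 and Rps27l have colour in all 4 S9.6 columns, and of the 39 human genes drawn RPL7, RPLP2 and RPS29 have colour in the FLAG-MCM8, S9.6 and RNH1 columns.

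The comparison of KO with WT MEFs asks whether loss of Mcm8 changes where DNA-RNA hybrids are found. More members had a promoter peak in KO than in WT, 18 against 7, a ratio of 2.57 beside 1.42 over all protein-coding genes. A peak in KO and none in WT was found for 14 members (17.1%, against 9.38% of protein-coding genes), and the reverse for 3 (3.66%, against 4.66%). Among the 17 members with a peak in only 1 of the 2 lists, KO held 82.4% (exact interval 56.6 to 96.2), and over protein-coding genes it held 66.8%, which lies inside that interval.

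The 14 members in KO alone of the pair were Rpl7, Rpl10, Rpl11, Rpl15, Rpl19, Rpl30, Rpl38, Rplp0, Rps2, Rps14, Rps16, Rps19, Rps25 and Rps28, and the 3 in WT alone were Rpl22, Rpl41 and Rps12. The peaks in KO were weak. Of the 18, 8 passed a q of 0.05 and 2, Rpl30 and Rps27a, reached a fold of 4. In WT 3 of the 7 passed each of these limits, so at a fold of at least 4 the order turned to 2 members in KO and 3 in WT, while over protein-coding genes it remained 7.02% in KO and 4.48% in WT. With only the strongest 4314 peaks of each MEF list, 9 members were found in KO and 6 in WT, beside 10.8% and 9.12% of protein-coding genes.

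Rpl30, which encodes a large subunit protein, had the highest fold of the KO list among members, 5.09 with 14 fragments at the summit, and a weaker peak with 9 fragments in shControl. Rpl11, whose protein binds MDM2 with the 5S ribonucleoprotein when ribosome assembly is disturbed, had folds of 3.91 in KO and 3.05 in shDdx5 and no peak in WT or shControl. Rps14, whose human counterpart is lost in the 5q- syndrome, had folds of 3.35 in KO and 3.23 in shDdx5, and the same 2 lists held Rpl38. No member had peaks in WT and shControl alone. The WT and shControl lists, the comparison groups, shared 2 members, Rps23 and Rps27l, so that 18.2% of the shControl members were also in WT, beside 39.9% over protein-coding genes.

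For the 4 members with a peak in both KO and WT, among them Rps23, Rps27a and Rps27l, the level, the fragments at the summit divided by the mean depth of the genome, can be compared. The level in KO was 0.637 times that in WT for Rps23, 0.973 for Rps27a and 0.778 for Rps27l. All 4 intervals included 1, the widest being 0.193 to 1.88 for Rps23. The median ratio was 0.875, and over the 1460 protein-coding genes with a peak in both lists it was 1.17.

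The comparison of shDdx5 with shControl asks the same of the helicase DDX5. The shDdx5 list held promoter peaks of 21 members and shControl of 11, a ratio of 1.91 beside 1.57 over protein-coding genes. A peak in shDdx5 and none in shControl was found for 15 members (18.3%, against 13.3%), and the reverse for 5 (6.10%, against 4.97%). shDdx5 held 15 of the 20 members found in only 1 of the 2 lists (interval of the share 50.9% to 91.3%), and 72.8% over protein-coding genes.

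The 15 were Rpl3, Rpl5, Rpl6, Rpl7a, Rpl11, Rpl21, Rpl24, Rpl38, Rpl39, Rps7, Rps12, Rps14, Rps21, Rps24 and Rps27a. The 5 in shControl alone of the pair were Rpl10a, Rpl19, Rpl30, Rpl39l and Rpsa. The order held at a fold of at least 4, with 9 members in shDdx5 and 5 in shControl (11.3% and 5.58% of protein-coding genes), and at a q of 0.05, with 15 and 5 (18.6% and 7.69%), so protein-coding genes at large had the same order. The depth of the genome was 1.67 in shDdx5 and 1.45 in shControl, and its part in these counts was not tested.

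Rps19 gave the strongest member peak of the MEF lists, a fold of 7.15 in shDdx5 with 22 fragments at the summit, higher than 98.5% of the promoter peaks of that list. The KO list had 3.61 with 12 fragments, shControl 3.31 with 8 fragments, and WT had no peak. The level in shDdx5 was 2.38 times that in shControl (1.02 to 6.18), the only 1 of 6 such members whose interval did not include 1. For Rpl37, Rpl7, Rps27l, Rps23 and Rpl13a the ratios were 1.47, 1.26, 1.21, 1.10 and 0.926. The median of the 6 was 1.23, near the 1.18 over 2144 protein-coding genes.

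Rpl5, whose protein forms the 5S ribonucleoprotein with that of Rpl11, had a peak in shDdx5 only, with a fold of 3.92. Among the other members with the highest folds in shDdx5, Rpl7 reached 5.56, Rps27a 5.29, Rpl39 5.16 and Rps27l 5.10. In WT the highest 5 were Rps27a at 5.15, Rps23 at 4.48, Rps27l at 4.37, Rps12 at 3.64 and Rpl41 at 3.44. In shControl they were Rpl7 and Rps23, both at 4.91, Rpl13a at 4.64, Rpsa at 4.56 and Rps27l at 4.50.

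**Figure D3:**
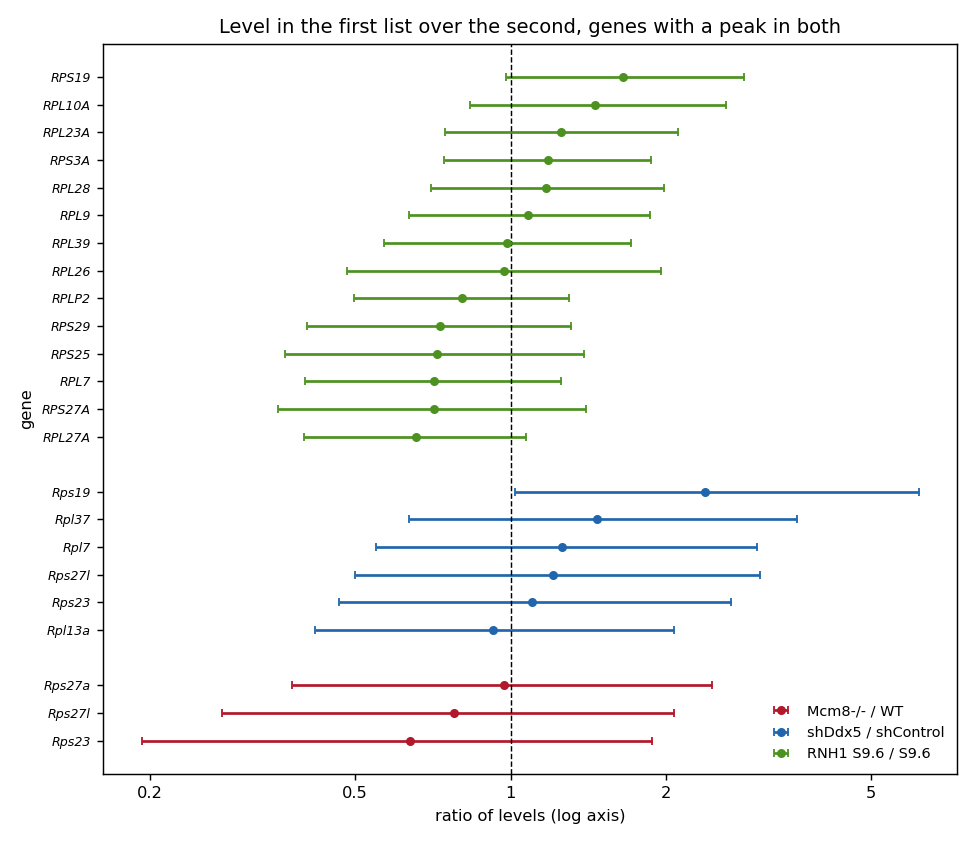
Ratio of the level in 1 list to that in the other (x axis, log axis; dashed line at 1) for members with a promoter peak in both lists (y axis); bars are exact 95% intervals from the fragment counts. The interval of Rps19 for shDdx5 over shControl (1.02 to 6.18) is the only 1 of the 23 drawn that does not include 1.

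The control lists held 1 member each. Rpl38, a large subunit gene required for the translation of certain Hox mRNAs, had a no-antibody peak with a fold of 3.66 that rested on 5 fragments and did not pass a q of 0.05. Its S9.6 peaks in KO (fold 3.78, 10 fragments) and shDdx5 (3.69, 13 fragments) lay in the same window. The KO peak shared bases with the control peak, and the shDdx5 peak did not.

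In HEK293 cells the comparison of S9.6 with and without the RNH1 plasmid asks which hybrids are lost when RNase H1 is supplied. Peaks of 15 members were found in both lists, of 13 in S9.6 alone of the pair (15.5%, against 12.6% of protein-coding genes) and of 9 in the RNH1-plasmid list alone (10.7%, against 7.18%). S9.6 held 59.1% of the members found in only 1 of the 2 lists (36.4 to 79.3), and 63.7% over protein-coding genes. Among the 59 members with no TSS of another protein-coding gene in the window, 13 had a peak in S9.6 (22.0%) and 14 in the RNH1-plasmid list (23.7%), beside 25.2% and 20.3% of protein-coding genes with such windows. The counts differ by 1 member.

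For the 15 shared members, each with overlapping peaks, the level in the RNH1-plasmid list ranged from 0.657 times (RPL27A) to 1.65 times (RPS19) that in S9.6. The 2 summits of RPL27A lay 793 bp apart. All 15 intervals included 1, and 6 of the 15 ratios were above 1. Their median was 0.971, and over 3496 protein-coding genes it was 0.920. RPS3A had 36 and 46 fragments (1.18, 0.743 to 1.87) and RPS19 had 24 and 43 (1.65, 0.978 to 2.84).

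By fold, the members in S9.6 and not in the RNH1-plasmid list were led by RPLP0 at 6.42, RPL21 at 6.17, RPL39L at 6.10, RPL36A at 5.65 and RPL36AL at 5.08, followed by RPL15 at 4.42, RPS23 at 3.85, RPL35 at 3.79, RPS20 at 3.76 and RPL36 at 3.73. The highest folds of the S9.6 list were those of RPL9 at 6.45, RPLP0, RPS3A at 6.25, RPL21 and RPL39L. In the RNH1-plasmid list they were RPS19 at 6.76, RPS3A at 6.60, RPL9 at 6.11, RPL37 at 5.99 and RPL39 at 5.61. RPS3A and RPL9 were among the 5 highest in both lists.

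The place of the HEK293 peaks differed between members and other genes, a feature that was chosen, as was the TSS used for it, after the values were seen. A peak with its midpoint within 1 kb of the TSS of the canonical transcript was found for 27 of the 28 members in S9.6 and 22 of the 24 in the RNH1-plasmid list. The strongest such peak, not always the strongest of the gene, was placed against that TSS. Of these, 20 of 27 member peaks in the S9.6 list (74.1%) lay wholly upstream and 7 crossed it, and for 4818 other protein-coding genes 28.5% lay wholly upstream, 55.5% crossed the TSS and 16.0% lay wholly downstream. No member peak lay wholly downstream. In the RNH1-plasmid list, 17 of 22 (77.3%) lay wholly upstream, against 30.9% of other genes. The exact intervals of the member shares ran from 53.7 to 88.9 and from 54.6 to 92.2, both above the shares of other genes, but genes are not replicates and both lists come from 1 library each.

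The summit lay upstream of the TSS in 25 of the 27 S9.6 peaks (92.6%, against 60.6% of other genes), at a median of -171 bp against -75.0 bp, where negative values are upstream. In the RNH1-plasmid list it did so in 21 of 22 (95.5%, against 59.5%), at a median of -227 bp against -78.0 bp. Over the 20 upstream S9.6 peaks the gap between the edge of the peak and the TSS had a median of 60.5 bp and ran from 21 to 339 bp. The 7 stretches of HEK293 sequence printed above were taken from the peaks that ended within 50 bp of the TSS, and there the gap was 21 bp for RPS3A, 23 bp for RPL28, 24 bp for RPLP2 and RPS19, 39 bp for RPL39, 43 bp for RPL26 and 50 bp for RPL23A. Of the 27 peaks, 8 (29.6%) ended upstream within 50 bp of the TSS, against 6.29% of other genes, and in the RNH1-plasmid list 2 of 22 did (9.09%, against 6.16%).

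The members were then split by whether a second gene on the other strand started in the window, upstream or downstream. Without a protein-coding gene of the opposite strand starting in the window, 13 of 15 members (86.7%) in S9.6 and 12 of 15 (80.0%) in the RNH1-plasmid list still had their peak wholly upstream, against 26.6% and 28.8% of other such genes. With the start shared by most principal transcripts in place of the canonical one, the shares were 72.0% and 76.2%. Of the FLAG-MCM8 peaks, 6 of 8 member peaks lay wholly upstream, against 41.8% of other genes, and none downstream. Without such a gene of the opposite strand it was 2 of 4, against 38.9%, too few peaks to compare. In MEFs the members were less far from other genes: the share wholly upstream was 29.4% in KO against 25.2%, 27.8% in shDdx5 against 18.6%, 40.0% in shControl against 28.5% and 4 of 7 in WT (57.1%) against 24.8%, and the number of peaks was small.

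**Figure D4:**
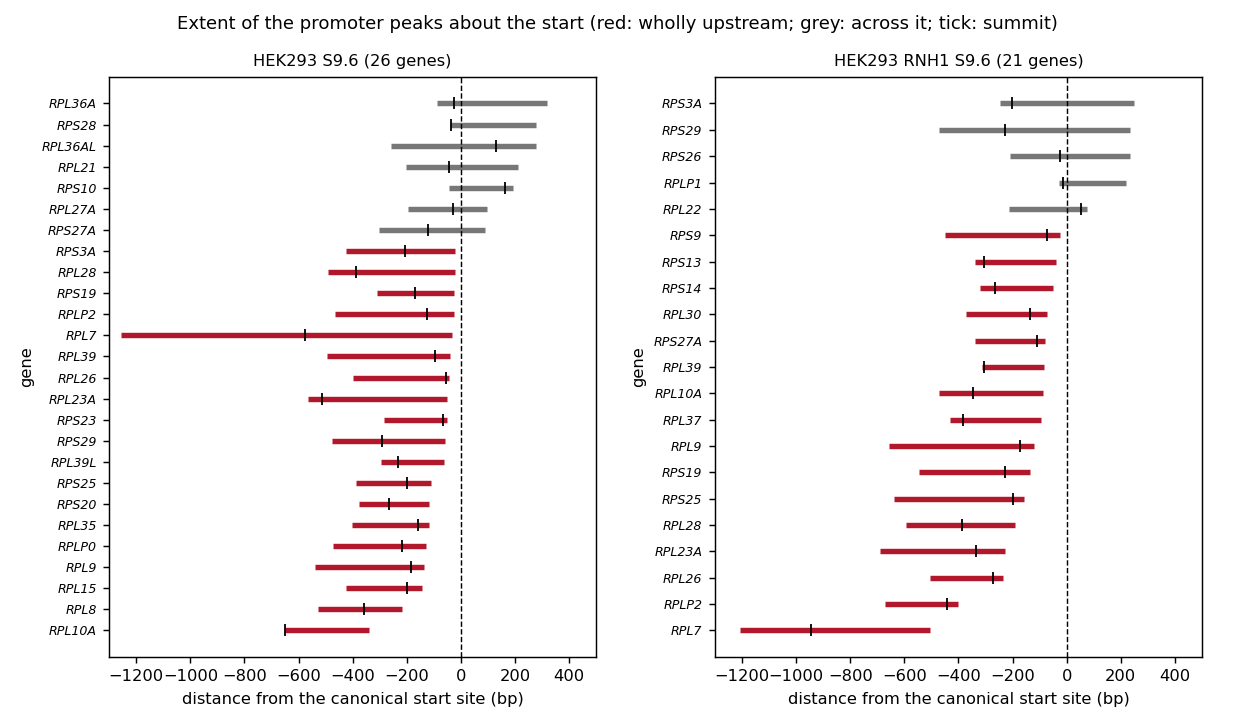
Extent of the strongest peak of members with its midpoint within 1 kb of the canonical TSS (bars; dashed line at the TSS, x axis in bp, negative is upstream) in HEK293 S9.6 (left, 26 genes drawn) and in S9.6 with the RNH1 plasmid (right, 21 genes drawn). Ticks mark the summits. Red bars, wholly upstream of the TSS, make up 19 of 26 and 16 of 21, and the grey bars cross it.

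The strength of the members' peaks was close to that of other promoters. The median fold was 3.64 in WT against 3.81 for other protein-coding genes, 3.67 in KO against 3.90, 3.50 in shControl against 3.69 and 3.92 in shDdx5 against 3.97. In HEK293 it was 4.31 in S9.6 against 4.83, 4.30 in the RNH1-plasmid list against 4.49 and 4.73 in FLAG-MCM8 against 4.98. The median of the members was the lower in all 7 lists, within the quartiles of other genes. By level, the fragments at the summit over the mean depth of the genome, members were the higher in both HEK293 S9.6 lists, at 11.2 against 10.1 and, with the RNH1 plasmid, 12.1 against 9.70. They were the lower in FLAG-MCM8, at 8.0 against 8.28, in KO, at 7.66 against 8.42, and in shControl, at 6.91 against 7.61, and equal in WT and shDdx5, at 7.87 and 7.77.

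**Figure D5:**
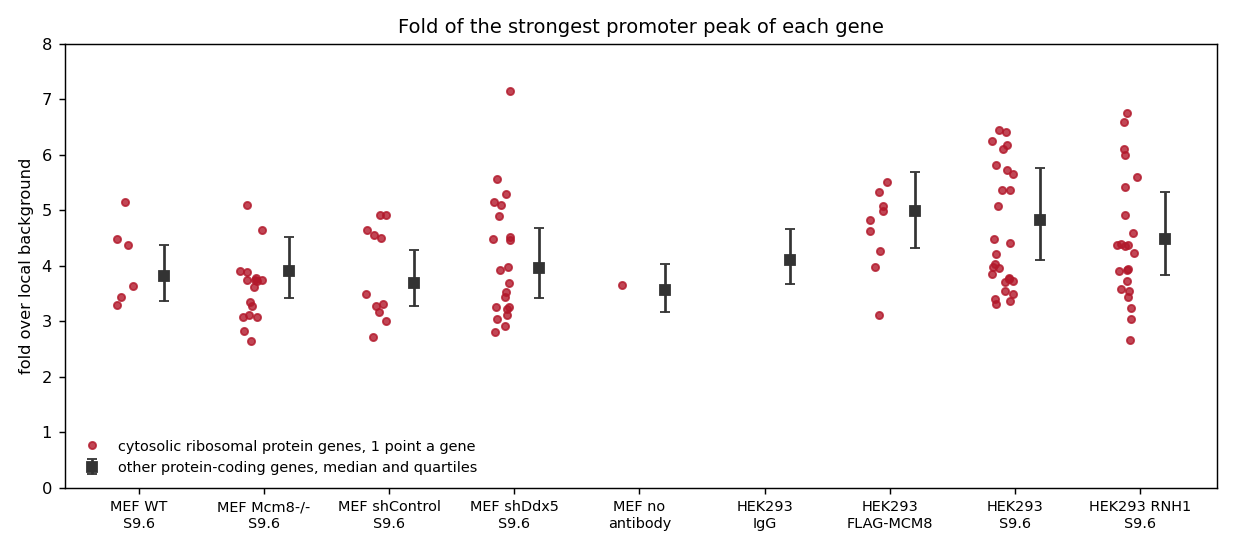
Fold over local background (y axis) of the strongest promoter peak of members (circles) in the 9 lists (x axis), beside the median and quartiles of other protein-coding genes (squares and bars). Rps19 in shDdx5, at 7.15, is the highest circle, and the circles of the other S9.6 and FLAG-MCM8 lists lie on either side of the squares.

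The comparison of FLAG-MCM8 with S9.6 asks where MCM8 is found together with hybrids. Of the 10 members with a FLAG-MCM8 promoter peak, 5 also had an S9.6 promoter peak, and the peaks shared bases in 4 of them, RPS10, RPS29, RPL7 and RPLP2 (4.76% of members, against 5.49% of protein-coding genes). RPS10 had a FLAG-MCM8 fold of 5.52 with 229 bp in common, RPS29 of 5.08 with 318 bp, RPL7 of 4.99 with 240 bp and RPLP2 of 3.98 with 31 bp. When 50% of each peak had to be shared, 2 of the 4 were left. All 4 windows also held a TSS of another protein-coding gene (the read-through gene RPS10-NUDT3, LRR1, RDH10 and PIDD1), and RPL36AL had both peaks without a shared base.

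Further members with FLAG-MCM8 peaks were RPL37 (fold 5.33), RPSA (4.83), RPL5 (4.27) and RPL41 (3.12). No member had both a FLAG-MCM8 and an IgG peak at the promoter. RPL37 overlapped a peak of the RNH1-plasmid list and had none in S9.6. RPS29, whose peaks in FLAG-MCM8, S9.6 and the RNH1-plasmid list had 318 bp in common, is shown by the part of that region outside annotated exons, at chr14:49586479-49586579 of hg38 on the minus strand. No summit fell in this stretch, so it holds no capitals.
RPS29: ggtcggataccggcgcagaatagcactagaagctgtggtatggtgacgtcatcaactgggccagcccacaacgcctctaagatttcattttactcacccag
Its GC content was 52.5%.

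The stalk of the large subunit, which recruits the elongation factors, is built on RPLP0 with RPLP1 and RPLP2. RPLP0 had a strong S9.6 peak in HEK293 (43 fragments, level 18.9) and no peak in the other HEK293 lists. RPLP2 had peaks in S9.6 (40 fragments), in the RNH1-plasmid list (35) and in FLAG-MCM8 (18). RPLP1 had 1 peak, in the RNH1-plasmid list, with a fold of 3.43. In MEFs Rplp0 had a peak in KO alone (fold 3.28, 9 fragments), and Rplp1 and Rplp2 had none.

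RPSA, the small subunit protein also known as the laminin receptor, had a FLAG-MCM8 peak 9 bp after a TSS in HEK293 and a peak in shControl in MEFs (fold 4.56, 12 fragments), 648 bp after a TSS. Of the paralogs, which are expressed beside or in place of a main copy, Rps27l and Rpl39l were found among the 5 in mouse, and RPL36AL and RPL39L among the 7 in human. Rpl39l had its peak in shControl alone, with a fold of 3.27 on 7 fragments.

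The promoters of the members shared features that the rule did not use. In the human, the GC content from 250 bases before to 50 bases after the canonical TSS had a median of 60.0% for members against 63.7% for other protein-coding genes, with an observed over expected CpG ratio of 0.911 against 0.776. GC skew, the excess of G over C on the coding strand in the 500 bases after the TSS, was 0.120 against 0.0524, and members with an S9.6 peak in 1 or more lists had 0.136 and those without 0.0968. A TOP start at any protein-coding transcript start of the gene was annotated for 69 of 84 members (82.1%, against 10.4%). The share was 86.5% of members with an S9.6 peak and 78.7% of those without. Members also had more annotated starts, a median of 8 against 5, which gives this rule more places to find one.

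In the mouse the GC content was 55.7% in members and in other genes, the CpG ratio 0.832 against 0.546 and the skew 0.0686 against 0.0526. Members with an S9.6 peak had a skew of 0.0618 and those without 0.0833, the opposite order to the human. By the same rule a TOP start was annotated for 22 of 82 (26.8%, against 5.05%), a share that depends on how exactly the annotation places the first base. It was 22.2% of members with an S9.6 peak and 30.4% of those without, again the opposite order to the human. The median number of annotated starts was 6 against 3. The members were short, with a median length of 3328 bp in the mouse against 17531 bp for other protein-coding genes.

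Genes that host small nucleolar RNAs were not set apart in the same direction across lists. In shDdx5 9 of 30 hosts and 12 of 52 other members had a promoter peak, in KO 5 and 13, and in HEK293 S9.6 8 of 28 (28.6%) and 20 of 56 (35.7%). In FLAG-MCM8 the shares were 5 of 28 (17.9%) and 5 of 56 (8.93%), and in the RNH1-plasmid list 32.1% and 26.8%. A second gene in the window moved with the HEK293 count. In S9.6, 13 of 22 members with a gene of the opposite strand starting in the window (59.1%) and 15 of 62 without (24.2%) had a promoter peak, and over other protein-coding genes the shares were 50.5% and 25.7%. The S9.6 MEF lists did not all share this order. It held in KO, with 6 of 18 members with such a gene and 12 of 64 without, against 34.1% and 13.5% of other genes. It also held, narrowly, in shDdx5, with 5 of 18 and 16 of 64, against 46.3% and 19.8%. The order was reversed in shControl and WT. In shControl none of 18 members with such a gene and 11 of 64 without had a peak, against 31.0% and 12.5% of other genes, and in WT 1 of 18 and 6 of 64, against 24.4% and 9.51%. For members with a second gene the peak cannot be assigned to 1 of the 2 genes.

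Of 82 members matched by symbol between the species, 36 had a promoter peak in an S9.6 MEF list. Of these, 13 (36.1%) had an S9.6 peak in HEK293, and of the 46 without a MEF peak 15 (32.6%) did. RPL7, RPS19, RPS23 and RPS27A were among those found in at least 2 S9.6 MEF lists and in HEK293 S9.6. No S9.6 peak in either species was found for 26, among them RPL3L, RPL4, RPL10L, RPL12, RPL13, RPL14, RPL17, RPL23, RPL27, RPL29, RPL31, RPL32, RPL34, RPL35A, RPL37A, RPS3, RPS4X, RPS6, RPS15, RPS15A, RPS18 and RPS27.

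Other gene families of protein synthesis were compared to place the members. The 78 mitochondrial ribosomal protein genes had promoter peaks in 21.8% in KO, 30.8% in shDdx5 and 46.2% in HEK293 S9.6, and the translation initiation factor genes in 23.6%, 34.5% and 51.8%. In HEK293 S9.6 both lay above the 33.3% of the cytosolic members and the upper bound of its interval, 44.5, but no interval was computed for these families. In the RNH1-plasmid list the mitochondrial share was 30.8% and the initiation factor share 44.6%, against 28.6% of members. In FLAG-MCM8 they were 12.8% and 17.9%, against 11.9%. Of 14 genes of elongation factors and other TOP mRNAs, 3 had a peak in WT, 6 in KO, 6 in shControl, 7 in shDdx5, 4 in FLAG-MCM8, 10 in HEK293 S9.6 (71.4%) and 8 in the RNH1-plasmid list. EEF1A1 and EEF1G were found in all 4 S9.6 MEF lists and in both HEK293 S9.6 lists.

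Of 20 nucleolar and ribosome assembly genes, 1 had a peak in WT (Rrp9), 5 in KO, 5 in shControl, 8 in shDdx5, 2 in FLAG-MCM8 (DKC1 and NOLC1) and 8 in each HEK293 S9.6 list. Of 8 RNA polymerase I genes, 1 had a peak in WT, 1 in KO, none in shControl, 4 in shDdx5, 2 in FLAG-MCM8 and 5 in each HEK293 S9.6 list. The share over all protein-coding genes also rose, from 11.3% in WT to 16.0% in KO, and from 14.7% in shControl to 23.1% in shDdx5. It was 12.0% in FLAG-MCM8, 30.1% in HEK293 S9.6 and 24.6% in the RNH1-plasmid list. Of the ribosomal parts whose symbols the rule does not take, Fau had a peak in shControl and FAU in HEK293 S9.6. Of the ribosome stress genes, Mdm2 had a peak in KO, Cdkn1a in shDdx5 and MDM2 in all 4 HEK293 lists, IgG included.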

How the data were processed

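CUT&Tag libraries (9 samples, 1 per group) had been made with a commercial transposase kit. The authors trimmed adapters and poor bases, aligned to mm10 or hg38 with Bowtie2 and called peaks per library with MACS2, of which the labels name version 2.1.2 and the study's methods another. The no-antibody library was not used as input in MEFs, and for HEK293 the study's methods describe keeping peaks with a fold above 2 and a p-value under 0.05. The deposited HEK293 lists differ from these limits. Their lowest −log10 p was 5.00 to 5.02, and folds went down to 1.79 in S9.6 and 1.72 in the RNH1-plasmid list. The settings given to MACS2, and whether IgG served as input, are not given in the sources used here. The deposited files hold the fold (a ratio over local background) and the −log10 p and q at each summit.

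The fragments at each summit and the local background were recovered from the deposited fold and p-value, and the lowest background was taken as the mean depth of the genome. Promoter windows reached 1000 bp from every TSS (GENCODE M21, mouse, and 44, human). Shares have exact Clopper-Pearson 95% intervals, and ratios of levels have intervals conditional on the summed fragments. The scripts were tested on simulated data. Python 3.11.15, pandas 2.3.3, NumPy 2.4.6, SciPy 1.17.1, pysam 0.24.0 and matplotlib 3.10.9 were used.

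Members, lists and comparisons were chosen with earlier results of these data known. Genes named were those in all 4 S9.6 MEF lists, in KO and shDdx5 alone or the reverse, in no S9.6 MEF list, with a control peak, the 5 highest folds per list, up to 10 in S9.6 but not in the RNH1-plasmid list, up to 10 with overlapping FLAG-MCM8 and S9.6 peaks, RPSA, the stalk genes and the paralogs, and list genes where 5 or fewer had a peak. Genes named outside these were chosen after their values were seen. Alternatives changed the window, the peak threshold, the number of peaks, the starts used, control peaks, shared windows and the overlap. Some genes are not reported or drawn here by name, and counts over all members include them.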

Additional observations from a re-analysis of the deposited data

How the results depend on the processing

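Of 147 alternative values, 112 stayed close to the main value (counts within 1.5 times it, shares wholly upstream inside its interval) and 35 moved, some of them still inside the printed interval of the main share. Some of the 112 could not move. Every HEK293 peak already passed a q of 0.05, and keeping the strongest peaks removed none from the no-antibody and RNH1-plasmid lists. With a window of 500 bp, members without antibody fell to 0 and those in shControl but not shDdx5 to 2. At a q of 0.05, counts were 3 in WT, 8 in KO, 5 in shControl, 0 without antibody, 7 in KO but not WT and 1 in shControl but not shDdx5. At a fold of at least 4, they were 3 in WT, 2 in KO, 5 in shControl, 9 in shDdx5, 0 in both controls, 16 in HEK293 S9.6, 13 in the RNH1-plasmid list, 1 in KO but not WT, 6 in shDdx5 but not shControl, 2 in the reverse and 2 with overlapping FLAG-MCM8 and S9.6 peaks. With the strongest 4314 mouse or 12497 human peaks of each list, they were 9 in KO, 6 in shControl, 12 in shDdx5, 0 in IgG, 8 in KO but not WT, 5 in the reverse, 7 in shDdx5 but not shControl and 1 in the reverse. With no other protein-coding gene in the window, they were 5 in FLAG-MCM8, 13 in HEK293 S9.6, 14 in the RNH1-plasmid list, 9 in KO but not WT, 6 in S9.6 but not the RNH1-plasmid list and 0 with overlapping FLAG-MCM8 and S9.6 peaks. With 50% of both peaks in common, 2 overlapped. The settings themselves take away peaks or genes. The order of KO above WT held in 8 of 9 settings and turned at a fold of at least 4, that of shDdx5 above shControl held in 9 of 9, and that of S9.6 above the RNH1-plasmid list in 7 of 9. The q limit among these settings could not change the HEK293 order. The share of HEK293 peaks wholly upstream, with alternatives added after seeing the data, stayed within its interval. No paired analysis was possible because each group had 1 library. Member peaks in MEFs rested on 6 to 22 fragments at the summit, and a gene without a peak may carry signal below the threshold.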

Other observations

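Some members had S9.6 peaks that overlapped the gene outside every promoter window of that gene. Whether such peaks lay in the promoter window of a neighbouring gene was not tested. At RPL41 such a peak lay across the 3′ end in HEK293 S9.6 (fold 5.42, −log10 q 22.6) and in the RNH1-plasmid list (4.04 and 14.5), with both summits at the same base past the end of the gene. RPL36 had one in S9.6 (4.49) and a stronger one in the RNH1-plasmid list (6.05, −log10 q 29.1). RPL4, which had no S9.6 promoter peak in either species, had peaks across its 3′ end in FLAG-MCM8 (5.08), S9.6 (5.11, summit past the end) and the RNH1-plasmid list (4.32). RPS9 had body peaks in all 4 HEK293 lists, with a fold of 3.52 in IgG. In the mouse the same was found for Rps14 in KO (3.21) and Rpl23 in shDdx5 (2.90) alone.

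Ribosomal protein genes have many processed pseudogenes with similar sequence. None of 294 mouse pseudogenes held a peak in any of the 5 MEF lists. Of 1588 human pseudogenes, 15 held one with IgG (0.945%), 8 with FLAG-MCM8 (0.504%) and 7 in each S9.6 list (0.441%). How reads that map to several copies were kept is not given in the sources used here.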
